A study of Mus musculus with 15 samples.

Results

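Cav1, Cav2 and Cavin1 (also called Ptrf) are 3 of the caveolin and cavin genes on the array. Their mean array level was higher at 12 h of differentiation than in undifferentiated neural stem cells and lower again at 24 h. For Cavin1 the higher 12 h mean was lost without 12 h replicates 3 and 4. The 3 genes were chosen by gene symbol, and for that time course. The array carries 6 of its 22626 probe sets other than controls for them: 1 for Cav1, 2 for Cav2 and 3 for Cavin1. In all, 12393 genes had a named probe set and 7909 passed a filter on low values (mean log2 level above 0.51, the 40th percentile of probe sets). Each of the 3 genes passed with 1 probe set, and the other 3 probe sets stayed below the filter. Because the group differences of these genes chose them, the differences are described below without a test.

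The samples were neural stem cells of the subventricular zone, the germinal layer that lines the lateral ventricles of the brain. They came from female C57Bl6/J mice of 6 months and were grown as neurospheres, floating clusters of dividing cells, for several passages. Of the 15 arrays, 5 held undifferentiated cells kept with the growth factors bFGF and EGF, 5 held cells taken after 12 h and 5 held cells taken after 24 h of differentiation without growth factors, in 5% serum on poly-D-lysine. Growth factor withdrawal, serum and the adhesive substrate came together, so their effects cannot be told apart. No source used here says whether the 5 samples of a group were separate cultures, so the spread between them may be technical.

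Caveolae are small flask-shaped pits of the plasma membrane, rich in cholesterol and sphingolipids. Caveolin-1 and caveolin-2, the products of Cav1 and Cav2, insert into the inner leaflet of the membrane as hairpins and assemble together, and caveolin-2 depends on caveolin-1 to reach the cell surface. Cavin-1, the product of Cavin1, is a cytosolic coat protein that is recruited to caveolin at the membrane and is needed to form the pit. Caveolae flatten when membrane tension rises and take part in endocytosis, lipid traffic and receptor signalling. In the brain they are best known in endothelial cells of the vessels, and caveolin-1 has also been described in astrocytes and progenitors.

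Cav2 and Cav1 lie side by side on mouse chromosome 6 on the same strand, with 0 other genes of the RefSeq table wholly between them. Cavin1 lies on chromosome 11. The 250 bases upstream of 1 RefSeq start site of each gene (GRCm38.p6) are shown for a comparison of promoters. For Cav1 and Cavin1 2 start sites are listed. The site at the 5′ end of the gene was used, and matches are given for its window alone. The 3 genes belong to one membrane structure and were chosen for a higher mean at 12 h, while their 24 h levels differ in direction from undifferentiated cells. The windows are chr6:17306085-17306334 on the plus strand for Cav1, chr6:17280935-17281184 on the plus strand for Cav2 and chr11:100970618-100970867 on the minus strand for Cavin1, each written 5′ to 3′ on the strand of the gene. Capitals mark matches on either strand to the GC box GGGCGG, the CCAAT box CCAAT, the AP-1 motif TGANTCA and the TEAD motif GGAATG.
Cav1: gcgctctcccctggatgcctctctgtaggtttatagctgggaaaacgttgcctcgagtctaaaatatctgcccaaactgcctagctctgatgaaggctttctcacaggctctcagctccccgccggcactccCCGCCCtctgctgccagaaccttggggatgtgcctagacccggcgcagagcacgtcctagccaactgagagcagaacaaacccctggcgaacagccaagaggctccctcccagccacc
Cav2: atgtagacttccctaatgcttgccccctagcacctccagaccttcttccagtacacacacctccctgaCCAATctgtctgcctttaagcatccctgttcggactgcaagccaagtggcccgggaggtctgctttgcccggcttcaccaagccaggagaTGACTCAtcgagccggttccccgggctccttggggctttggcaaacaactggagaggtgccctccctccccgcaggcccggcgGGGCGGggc
Cavin1: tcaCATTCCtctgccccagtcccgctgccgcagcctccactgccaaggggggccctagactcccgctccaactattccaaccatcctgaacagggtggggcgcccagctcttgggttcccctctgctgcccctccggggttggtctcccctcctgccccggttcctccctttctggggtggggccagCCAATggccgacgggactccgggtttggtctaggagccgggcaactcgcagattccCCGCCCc
The GC box, which Sp1-family factors can bind, was found in all 3 windows, and 32.7% of 32851 such windows of the genome's genes hold it. A CCAAT box was found upstream of Cav2 and Cavin1, against 33.9% of all windows. The AP-1 motif, a target of Fos and Jun factors, stood upstream of Cav2, 92 bases before the start site, and 6.75% of windows hold it. The TEAD motif, a target of the factors through which YAP acts, stood upstream of Cavin1 and in 12.6% of windows. A CArG box, the motif of serum response factor (SRF), was searched by name and matched in 0 of the 3 windows and in 1.47% of all windows. None of the capitals in one window overlap. The GC content was 59.6% for Cav1, 62.0% for Cav2 and 67.6% for Cavin1, against a median of 52.4% over all windows. A match here is a run of letters, not a bound site, and the arrays measure no binding.

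The labels carry a conflict that bears on every value below. Each sample has an array code in its title and another code in its description, and grouping by the second code would move 8 of the 15 samples to another group. Groups here follow the titles. Array values stand on the log2 scale, as the deposited log10 values multiplied by 3.32, and the offset of that scale is unknown. The levels of different genes are therefore not set against each other, except where linear levels of marker lists are summed. Replicate numbers only name arrays. At 12 h, replicates 3 and 4 were unusually alike (SD of the difference over genes 0.15, against 0.24 for the next closest pair of any group), and replicate 1 was the array farthest from the other 12 h arrays. Group differences at 12 h are therefore also given without replicates 3 and 4 and without replicate 1 where these decide a value or a call.

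Of 8 neural stem cell marker genes 8 passed the filter, as did 7909 of all 12393 genes. The filter is on the mean over all 15 arrays, so it does not speak for each group. At 12 h against undifferentiated cells 1 of them rose, the RNA-binding protein gene Msi1 (0.91 ± 0.22, SE of the difference, limma p adjusted over all 7909 genes = 0.023), where 3.3% of all tested genes were called higher and 4.56% lower. With the code suffix described below as a block 3 rose at 12 h (Msi1, Sox2 and Vim) and 2 fell (Nes and Egfr), where 7.99% of all tested genes were called higher and 10.7% lower. At 24 h against undifferentiated cells 3 of 8 rose and 2 fell, where 12.7% of all tested genes were called higher and 19.4% lower. Msi1 rose by 1.31 ± 0.22 (adjusted p = 0.000687), Sox2, a transcription factor of neural stem cells, by 1.03 ± 0.24 (adjusted p = 0.00466), and Prom1, which encodes the surface protein prominin-1, by 1.03 ± 0.32 (adjusted p = 0.0209). The intermediate filament gene Nes fell by 2.05 ± 0.37 (adjusted p = 0.000975), and Egfr, also on a list below, was the other gene that fell. Of 30 alternative settings, 7 lost the call of Msi1 at 12 h and 6 that of Prom1. At 24 h, 2 lost those of Msi1, Sox2 and Nes, and 3 that of Egfr. With the actin ratio described below as a covariate, 13 of all 7909 genes were called at 24 h against undifferentiated cells. The lowest log2 level of Sox2 was 7.16 over the 15 arrays, and that of the radial glial lipid carrier Fabp7 was 9.38. Of 10 endothelial markers 0 passed the filter, and the defining genes Pecam1 and Cdh5 stayed between -0.83 and -0.50 in every array. The summed linear level of the endothelial list ran from 7.66 to 8.24 at 12 h, against 7.75 to 8.37 in undifferentiated cells. It was 7.45 to 8.13 at 24 h. Every gene in that sum lay below the filter, so the sum reads values near the floor of the array. Of 13 markers of pericytes, smooth muscle cells and fibroblasts, 2 passed the filter, Pdgfrb and Cspg4, and the summed level was 13.6 to 20.7 at 12 h, against 17.6 to 22.9 in undifferentiated cells. At 24 h that sum was 16.9 to 20.6, while Pdgfrb, the PDGF-B receptor, rose by 1.97 ± 0.23 over undifferentiated cells (adjusted p = 8e-05) and by 1.29 ± 0.23 over 12 h (adjusted p = 0.0311). The call against undifferentiated cells was lost in 2 of 29 alternative settings and that against 12 h in 13 of 29. Against 12 h the adjusted p was 0.347 without 12 h replicates 3 and 4 and 0.0693 with runs of codes as a block. Cspg4 made up much of the sum, with 26.7% to 49.5% of it at 12 h, against 43.2% to 54.8% in undifferentiated cells, and the 12 h difference of Cspg4 was -0.71 ± 0.24 (adjusted p = 0.0714). Acta2, Tagln and Myl9, which smooth muscle cells and pericytes also express, stand in another list below and rose at 12 h. They were picked after that rise was seen. Actg2, Cnn1 and Tpm2 of the same list stayed below the filter, as did Myh11 and Des of the 13 markers. With Acta2, Tagln and Myl9 added the sum was 36.7 to 292.8 at 12 h (median 189.5), against 31.4 to 40.6 in undifferentiated cells (median 33.4). At 24 h that larger sum was 56.1 to 198.5. The part of such cells in the levels of the caveolins was not tested. In bulk RNA, more expressing cells and more RNA per cell cannot be told apart.

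Cav1 encodes the caveolin without which most cell types form no caveolae. Its log2 level in undifferentiated cells was 2.10, 1.63, 2.26, 2.74 and 2.24 in replicates 1 to 5. At 12 h it was 1.85, 5.08, 6.07, 5.98 and 3.95, and at 24 h 2.61, 3.16, 3.60, 2.72 and 2.25. At 12 h, 4 of 5 arrays lay above every undifferentiated array, and replicate 1 lay inside the undifferentiated range. Over all tested genes, 3.41% had 12 h arrays wholly above the undifferentiated ones and 4.74% wholly below. The group means were 2.19 ± 0.40 in undifferentiated cells, 4.59 ± 1.75 at 12 h and 2.87 ± 0.52 at 24 h (SD, n = 5 each). The mean at 12 h was thus 2.39 ± 0.60 (SE) above undifferentiated cells on the log2 scale, or 5.26-fold, and the mean at 24 h was 3.29-fold below 12 h (log2 difference -1.72). The 24 h level stayed 0.68 above the undifferentiated mean, with overlapping groups, where 9.04% of tested genes had 24 h arrays wholly above.

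Cav2 encodes the partner caveolin. In undifferentiated cells its log2 level was 3.71, 3.96, 4.12, 4.49 and 4.63 in replicates 1 to 5. At 12 h the values were 3.66, 4.83, 5.49, 5.48 and 4.16. They were 3.11, 3.09, 3.48, 3.02 and 3.24 at 24 h, a narrow range that lay below every undifferentiated and every 12 h array. The mean was 4.73 ± 0.81 at 12 h, against 4.18 ± 0.38 in undifferentiated cells, a difference of 0.54 ± 0.30 (SE) with overlapping groups. At 24 h the mean was 3.19 ± 0.18 (SD, n = 5), which is 2.90-fold below 12 h and 1.99-fold below undifferentiated cells (log2 differences -1.54 and -0.99). The low point at 24 h was therefore the clearest feature of Cav2, and its 12 h mean rested on replicates 2, 3 and 4.

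Cavin1 encodes the coat protein. Its log2 level was 2.30, 2.56, 2.72, 3.03 and 3.26 in undifferentiated replicates 1 to 5, and 1.90, 3.05, 4.95, 4.77 and 2.69 at 12 h. At 24 h it was 2.08, 2.12, 2.74, 2.05 and 1.88. Only 12 h replicates 3 and 4 exceeded all undifferentiated arrays, and 12 h replicate 1 lay below all of them. The mean at 12 h was 3.47 ± 1.33, against 2.78 ± 0.38 in undifferentiated cells, a difference of 0.70 ± 0.46 (SE). The mean at 24 h was 2.18 ± 0.33 (SD, n = 5), 2.46-fold below 12 h and 1.51-fold below undifferentiated cells. At 24 h, 4 of 5 arrays lay below every undifferentiated array.

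**Figure D1:**
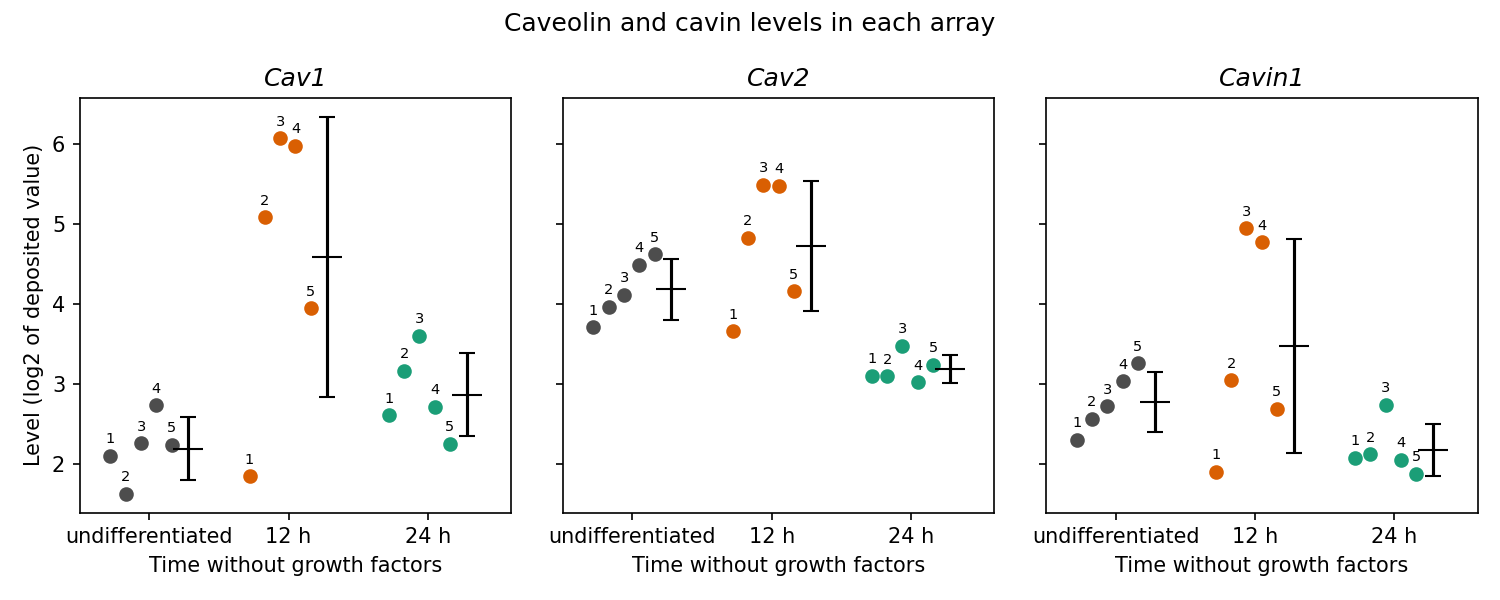
Level of Cav1, Cav2 and Cavin1 in each array, as the log2 of the deposited value (vertical axis), in undifferentiated cells, at 12 h and at 24 h. Points are arrays marked with their replicate number, and the black bar beside each group is its mean with the SD (n = 5). The 12 h arrays spread widely, with replicate 1 lowest and replicates 3 and 4 highest for all 3 genes, and the 24 h values of Cav2 lie below all others.

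Among the 7909 tested genes, 1982 (25.1%) had their highest group mean at 12 h. The height of that peak, the 12 h mean minus the higher of the other 2 means, was 1.72 for Cav1, 0.70 for Cavin1 and 0.54 for Cav2. These are ranks 2, 25 and 53 of 7909. A peak of at least 0.5 was found for 70 genes (0.885%), among which all 3 genes are, and a peak of at least 1 for 7 genes, of which Cav1 is 1. The peak without 12 h replicates 3 and 4 was 0.76 for Cav1 (rank 9) and 0.04 for Cav2 (rank 1924), and Cavin1 had none (-0.23). Without 12 h replicate 1 it was 2.40, 0.81 and 1.09 for Cav1, Cav2 and Cavin1 (ranks 2, 32 and 13). These ranks restate how the genes were chosen. In the fit over all genes, 7.86% were called at 12 h against undifferentiated cells, 32.1% at 24 h against undifferentiated cells and 0.417% at 24 h against 12 h. Groups that did not overlap, with the later one lower, were found for 2.21% of genes between 24 h and 12 h and for 16% between 24 h and undifferentiated cells, the 2 comparisons in which Cav2 was of that kind.

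The 12 h mean depended strongly on single arrays. Without 12 h replicates 3 and 4 the 12 h difference from undifferentiated cells was 1.43 for Cav1 and 0.04 for Cav2, and for Cavin1 it turned to -0.23. Without them, the difference between 24 h and 12 h was -0.76 for Cav1, -1.03 for Cav2 and -0.37 for Cavin1. Leaving out 12 h replicate 1 instead gave differences from undifferentiated cells of 3.08, 0.81 and 1.09 for Cav1, Cav2 and Cavin1. The poly-A spike-in controls, RNAs added before labelling, averaged 0.538 and 0.590 (log10) in 12 h replicates 3 and 4, while replicates 1, 2 and 5 read 0.790 to 0.850. These controls read 0.126 to 0.608 in undifferentiated arrays and 0.640 to 0.780 at 24 h. On them 12 h replicates 3 and 4 thus lay within the undifferentiated range. The part of the spike-ins in the results was not tested. Grouped by the codes of the descriptions, the 12 h difference was 0.06 for Cav1, 0.00382 for Cav2 and -0.21 for Cavin1 and the difference between 24 h and 12 h was 0.04, -0.18 and 0.18. The time course thus belongs to the grouping by titles.

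The title codes end in 1 of 3 suffixes, called A, B and C here, and fall into 6 runs of consecutive codes. Within runs, Cav1 was higher at 12 h than in undifferentiated cells in 4 of 5 runs (differences of -0.25 to 3.81), and Cav2 and Cavin1 were so in 3 of 5. Between 24 h and 12 h all 3 genes were lower in 4 of 4 runs that hold both times, with differences of -2.91 to -1.70 for Cav1, -2.40 to -0.92 for Cav2 and -2.83 to -0.81 for Cavin1. Between 24 h and undifferentiated cells the genes parted: Cav1 was higher in 4 of 4 runs (0.01 to 0.98), while Cav2 (-1.39 to -0.86) and Cavin1 (-1.38 to -0.29) were lower in 4 of 4. Run 1, whose 12 h array lay below its undifferentiated array for each gene, holds no 24 h array. Over the 4 runs with all 3 times Cav1 was higher at 12 h than in undifferentiated cells in 4 of 4, and Cav2 and Cavin1 in 3 of 4. Runs 3 and 4 take their 12 h values from replicates 3 and 4, the unusually alike arrays, so those runs may not be separate agreements. The genes were chosen for their fall after 12 h, and the share of all genes lower in 4 of 4 runs was not counted.

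Within suffixes A, B and C the 12 h difference was 1.60, 3.53 and 1.71 for Cav1. It was 0.41, 1.18 and -0.46 for Cav2 and 0.04, 1.99 and -0.56 for Cavin1, so in suffix C, which holds 1 array of each of these groups, only Cav1 was higher. Suffix B holds the replicates 3 and 4 that resemble each other. Taken in the same order of suffixes, the differences between 24 h and 12 h were -0.86, -2.64 and -1.47 for Cav1, -1.14, -2.20 and -1.03 for Cav2, and -0.40, -2.43 and -0.73 for Cavin1. The 3'/5' signal ratio of the actin control probe sets, which reads RNA integrity and labelling, also moved with time. It was 1.95 ± 0.24 in undifferentiated cells, 2.36 ± 0.15 at 12 h and 2.78 ± 0.37 at 24 h (SD, n = 5 each). With that ratio as a covariate the 12 h differences were 2.34 for Cav1, 0.45 for Cav2 and 0.67 for Cavin1, and those between 24 h and 12 h were -1.77, -1.62 and -1.32.

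**Figure D2:**
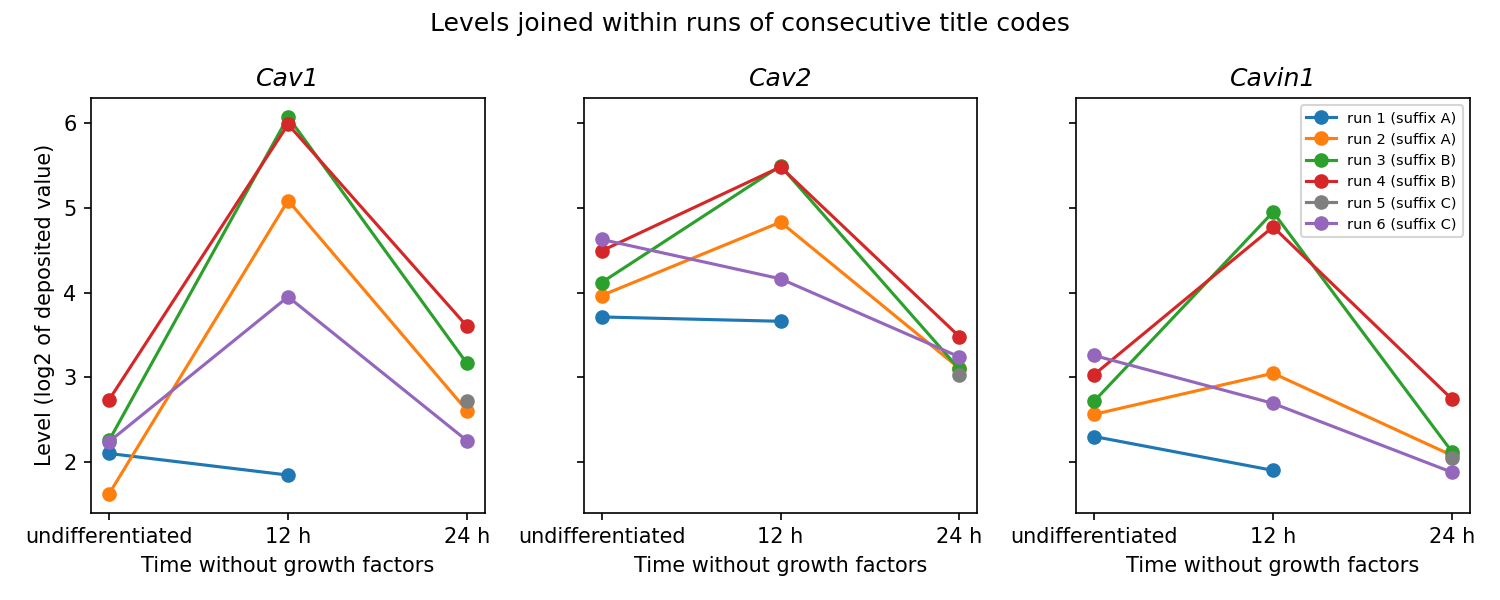
Level of each gene (log2 of the deposited value, vertical axis) in undifferentiated cells, at 12 h and at 24 h, with lines joining arrays of the same run of title codes. All 4 runs with both times go down between 12 h and 24 h for each gene. Run 1, the run with 12 h replicate 1, shows no 12 h peak, and run 6 shows one for Cav1 only.

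Single arrays deviated from their group means in the same way for all 3 genes. The 12 h arrays shaped both the 12 h means for which the genes were chosen and these deviations, so correlations that include them are descriptions with no test. The SD of the deviations was 1.08 for Cav1, 0.53 for Cav2 and 0.82 for Cavin1 on the log2 scale. Over the 15 arrays Pearson's r was 0.949 between Cav2 and Cavin1 (Spearman's rho 0.850), 0.893 between Cav1 and Cavin1 (rho 0.821) and 0.890 between Cav1 and Cav2 (rho 0.814). An array high for 1 of the genes within its group thus tended to be high for the others. In undifferentiated cells the 5 arrays had the same rank order for Cav2 and Cavin1, with replicate 1 lowest and replicate 5 highest. That order is also the order of their title codes.

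The 2 arrays farthest from the median were 12 h replicates 3 and 4 for each pair, and without them r was 0.918 for Cav2 and Cavin1, 0.827 for Cav1 and Cavin1 and 0.770 for Cav1 and Cav2. With the code suffix removed, r over all 15 arrays was 0.921, 0.817 and 0.833 in the same order. The 10 arrays outside 12 h, a subset chosen after the data were seen, were tested by permutation within groups. The test was two-sided, with p adjusted over 3 pairs. The means of these 2 groups entered the choice of genes too. They gave r = 0.894 for Cav2 and Cavin1 (permutation adjusted p = 0.00885; rho 0.745, adjusted p = 0.0477) and 0.719 for Cav1 and Cavin1 (permutation adjusted p = 0.0377; rho 0.794, adjusted p = 0.0317). For Cav1 and Cav2 they gave 0.504, which did not pass (permutation adjusted p = 0.119; rho 0.430, adjusted p = 0.190). Each p comes from 100000 permutations, which treated the arrays of a group as exchangeable, without regard to suffix or run. Arrays of a run correlated by 0.291 in their deviations over all genes, so these p-values may be too small. A drift shared by the genes along the title codes was not tested. Without the 2 of these 10 arrays farthest from the median of the first gene, r was 0.802, 0.465 and 0.223 in the same order. In that setting 0 of 3 pairs passed (permutation adjusted p = 0.140, 0.313 and 0.662, n = 8). The arrays left out were 24 h replicate 3 and undifferentiated replicate 2 for the pairs with Cav1. There r fell from 0.719 to 0.465 with Cavin1 and from 0.504 to 0.223 with Cav2. For Cav2 and Cavin1 undifferentiated replicates 4 and 5 were left out, and r went from 0.894 to 0.802. With 8 arrays in place of 10, a lost call cannot tell a weaker relation from a smaller number of arrays. The counts that follow take r over all arrays, those at 12 h included, so they are descriptions with no test. Of the 7906 other tested genes, 0 were as closely tied to Cav2 within groups as Cavin1 was. Seen from Cavin1, 17 genes (0.215%) reached the r that Cav2 had with it, and 142 genes (1.8%) reached that of Cav1. Cav1 had 67 genes (0.847%) at or above its r with Cav2, and the median r of other genes with Cav1 was 0.15.

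**Figure D3:**
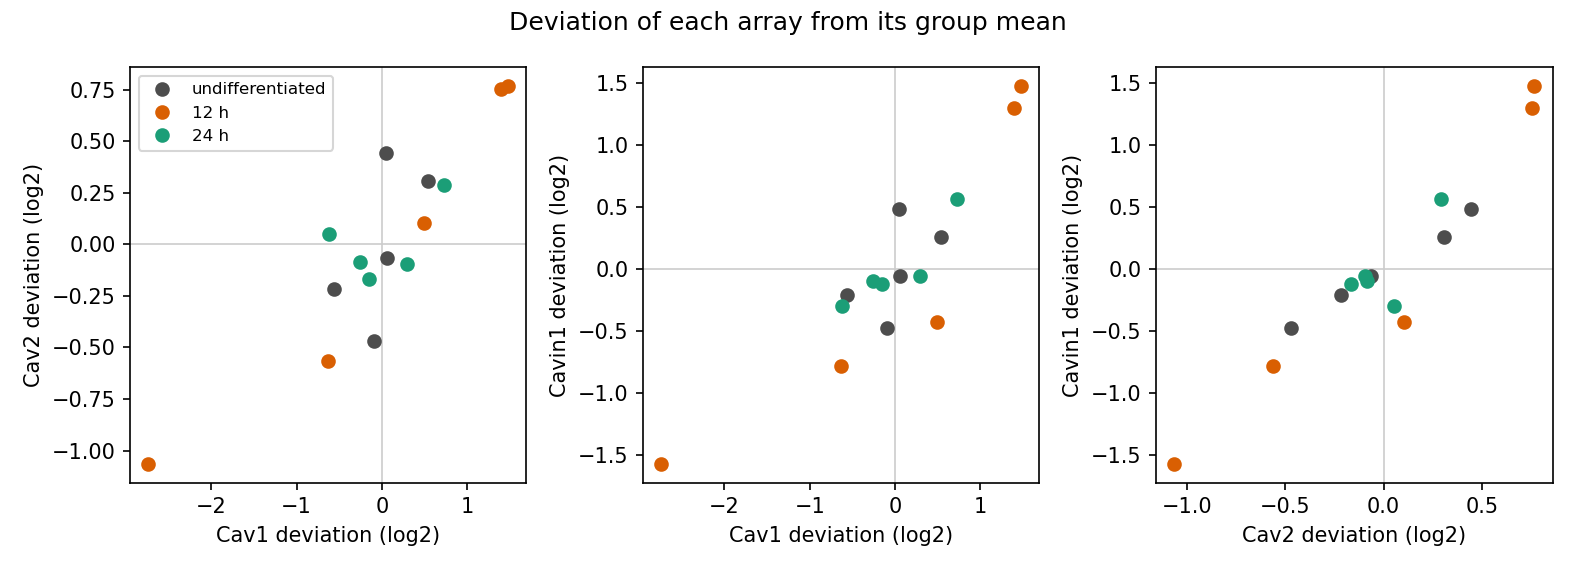
Deviation of each array from the mean of its group for each pair of genes, both axes on the log2 scale, with arrays coloured by group. The points run along a rising line in each panel. The 12 h arrays lie at both ends, and the 24 h and undifferentiated arrays of Cav2 and Cavin1 follow the same line between them.

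The remaining probe sets of these genes gave low values. The second Cav2 probe set, 1425955_at, ran from -0.21 to 0.16 on the log2 scale over all arrays and had group means of -0.03 in undifferentiated cells, 0.03 at 12 h and -0.15 at 24 h. The order of its means matched that of the leading Cav2 probe set, 1417327_at, and over the 15 arrays the pair correlated with r = 0.867, as a description. For Cavin1, probe set 1421431_at had means of -0.79, -0.73 and -0.87 at the same times and r = 0.761 with the leading 1424130_a_at, and 1453891_at had means of -0.52, -0.47 and -0.49 and r = 0.255. All 3 had their highest mean at 12 h, by at most 0.06 over undifferentiated cells, beside SDs within groups of 0.05 to 0.11. Values this low lie near the floor of the array. Whether these probe sets can show a change of the RNA was not tested. Averaging the probe sets of a gene brought the difference between 24 h and 12 h to -0.86 for Cav2 and -0.48 for Cavin1.

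The other genes of the caveola coat and neck, from a list written for the structure, gave few calls. Of 13 such genes 12 are on the array and 8 passed the filter. At 12 h against undifferentiated cells 0 of 8 passed the test in limma, and 0 had an unadjusted p under 0.05 (median difference 0.25, against 0.00 over all tested genes, of which 3.3% were called higher and 4.56% lower). At 24 h against undifferentiated cells 2 of 8 rose and 0 fell (median -0.07, against -0.06 over all genes, of which 12.7% were called higher and 19.4% lower). Between 24 h and 12 h 0 of 8 passed in limma and 4 had an unadjusted p under 0.05 (median -0.21, against -0.06, with 0.0632% called higher and 0.354% lower over all genes).

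Cavins other than Cavin1 gave small values. Cavin3, a cavin that interacts with protein kinase C delta, was 0.37 ± 0.21 higher at 12 h than in undifferentiated cells (adjusted p = 0.28) and 0.46 ± 0.21 lower at 24 h than at 12 h (adjusted p = 0.319). The means of Cavin3 thus took the course for which the 3 genes were chosen. Cavin2, which promotes membrane curvature, stayed below the filter. Its log2 level was 0.11 to 0.50 at 24 h, against -0.27 to -0.04 in undifferentiated cells, so these groups did not overlap. Cavin4 and Cav3, the members of both families known from muscle, stayed at or below 0.11 and -0.57 in every array.

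The EHD ATPases gather at the caveolar neck, where Ehd2 stabilises the pit at the membrane. Ehd3 rose at 24 h to a log2 level of 3.48 ± 0.33, against 2.79 ± 0.33 in undifferentiated cells (difference 0.69 ± 0.19 SE, adjusted p = 0.0105). Ehd2 was 1.42, 2.48, 3.09, 3.00 and 1.91 in 12 h replicates 1 to 5, against 1.70 to 2.14 in undifferentiated cells, with replicates 2, 3 and 4 high as for the caveolins. The difference of 0.43 ± 0.27 did not pass (adjusted p = 0.326), nor did that of -0.74 ± 0.27 between 24 h and 12 h (adjusted p = 0.199). These differences of Ehd2 were -0.01 and -0.30 without 12 h replicates 3 and 4, and 0.67 and -0.98 without replicate 1 (adjusted p = 0.0968 and 0.0546). Ehd4 was 0.64 ± 0.28 lower at 24 h than in undifferentiated cells without passing (adjusted p = 0.0944), although the groups did not overlap, and passed with the code suffix as a block (adjusted p = 0.015) or the runs of codes (0.0206). When 12 h replicates 3 and 4 were left out, Ehd4 was the 1 gene of 8 called at 12 h, as lower, beside 14.8% over all genes. Ehd1 differed by at most 0.21 in any comparison.

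Dnm2, the dynamin that cuts caveolae and clathrin-coated pits from the membrane, rose at 24 h to 2.61 ± 0.24, against 2.11 ± 0.22 in undifferentiated cells (difference 0.50 ± 0.15 SE, adjusted p = 0.0194). Pacsin3, an F-BAR protein that bends membranes, was 0.33 ± 0.19 higher at 24 h without passing (adjusted p = 0.191), but passed with the code suffix as a block (adjusted p = 0.0225) or the runs of codes (0.0483). With the runs as a block Dnm2 lost its call (adjusted p = 0.056). Pacsin1, its neuronal relative, stayed below the filter. Flna, the actin crosslinker that tethers caveolin-1 to stress fibres, was 3.88, 4.35, 5.20, 5.23 and 4.07 in 12 h replicates 1 to 5, against 3.40 to 4.46 in undifferentiated cells. Its difference of 0.63 ± 0.30 did not pass (adjusted p = 0.193), was 0.19 without replicates 3 and 4 and 0.80 without replicate 1, and passed with the runs of codes as a block (adjusted p = 0.0256). With the actin ratio included in the fit, or with groups by the codes of the descriptions, the calls of Ehd3 and Dnm2 were lost, as they were with the mean of probe sets. Flna, Ehd2, Cavin3, Ehd1 and Ehd4 had their highest 12 h values in the same 2 arrays as the caveolins, replicates 3 and 4. Ehd3, Pacsin3 and Dnm2 did not. The trait is not particular to caveola genes, since Flot2, Cltb and Tagln2 of the lists below had it too. Its share over all genes was not counted.

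**Figure D4:**
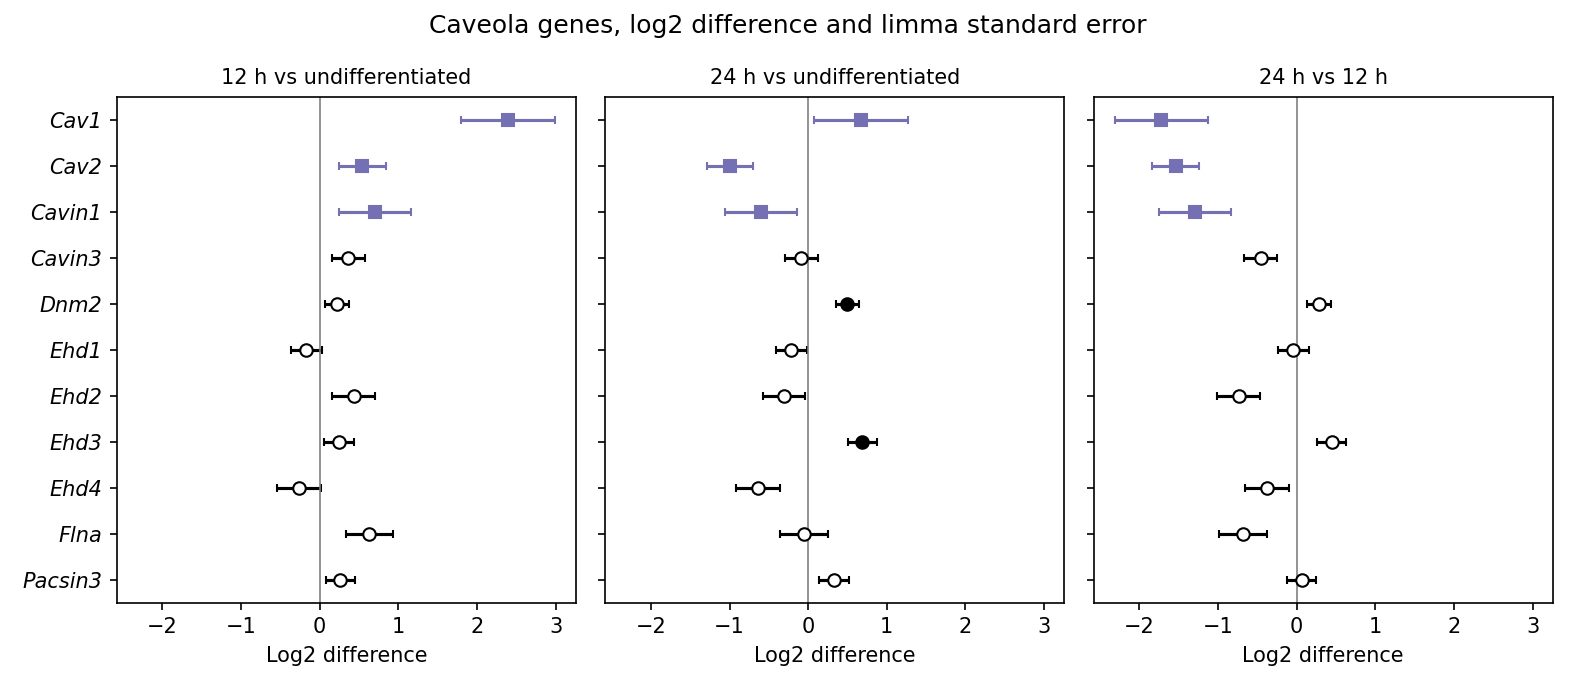
Log2 difference with the limma standard error (horizontal axis) for Cav1, Cav2 and Cavin1 (squares, not tested because they were chosen for these differences) and for the 8 other caveola genes above the filter (circles, filled where the adjusted p is under 0.05), in each comparison named above the panel as first group against second. Only Dnm2 and Ehd3 are filled, both at 24 h against undifferentiated cells, and the 3 squares lie right of 0 at 12 h and left of it between 24 h and 12 h.

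Proteins of membrane rafts that need no caveolin were examined next. The flotillins Flot1 and Flot2, scaffolds of other cholesterol-rich domains, belong to a list of which 9 of 11 measured genes passed the filter. At 12 h 0 of 9 passed the test in limma, with 2 at an unadjusted p under 0.05. Without 12 h replicates 3 and 4, a setting in which 24.3% of all tested genes were called at 12 h, 2 of the 9 rose and 2 fell. At 24 h against undifferentiated cells 2 of 9 rose and 2 fell, where 12.7% of all tested genes were called higher and 19.4% lower. Stom, the membrane protein stomatin, rose by 1.02 ± 0.36 (adjusted p = 0.0416) and Pag1, which recruits the Src inhibitor Csk to rafts, by 0.72 ± 0.24 (adjusted p = 0.0341). Erlin1, a prohibitin-domain protein of the endoplasmic reticulum, fell by 0.74 ± 0.18 (adjusted p = 0.0067) and Thy1, a GPI-anchored surface protein, by 1.23 ± 0.35 (adjusted p = 0.0143). The calls of Stom and Pag1 were lost in 14 and 10 of 30 alternative settings. Lgals3, galectin-3, was picked out after its values were seen: it stood at 5.13 and 4.91 in 12 h replicates 3 and 4, while replicates 1, 2 and 5 had 0.33 to 1.17. The highest value of Lgals3 outside these 2 arrays was 1.21, in an undifferentiated array, and its 12 h difference did not pass (adjusted p = 0.128). That difference was called with the code suffix as a block (adjusted p = 0.0372) and was 0.18 without the 2 arrays.

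Among receptors and kinases described as partners of caveolin-1, 15 of 21 measured genes passed the filter. At 12 h 0 of 15 rose and 1 fell, where 3.3% of all tested genes were called higher and 4.56% lower. Without 12 h replicates 3 and 4, without replicate 1 or with the code suffix as a block 1 rose and 2 fell. Over all tested genes these settings called 9.51%, 3.03% and 7.99% higher, and 14.8%, 2.81% and 10.7% lower. At 24 h against undifferentiated cells 1 of 15 rose and 4 fell, beside 12.7% and 19.4% over all genes. This lean of all genes towards lower calls turned under quantile normalisation (20% higher and 16.6% lower), where 3 partner genes rose and 4 fell. Scarb1, the HDL receptor that sits in caveolae in several cell types, was 2.72, 2.78, 3.06, 3.08 and 2.74 in 12 h replicates 1 to 5, against 3.53, 3.53, 3.94, 4.18 and 3.45 in undifferentiated cells. It fell by 0.85 ± 0.18 at 12 h (adjusted p = 0.0135) and by 1.51 ± 0.18 at 24 h (adjusted p = 8.6e-05), and neither group overlapped with the undifferentiated arrays. Egfr, the EGF receptor, fell by 1.08 ± 0.24 at 24 h (adjusted p = 0.0033), and Tgfbr2, the type II TGF-beta receptor, by 0.87 ± 0.24 (adjusted p = 0.0124). The kinase gene Abl1 rose by 0.47 ± 0.13 (adjusted p = 0.0129). Between 24 h and 12 h 0 of 15 partner genes and 0 of 9 raft genes passed in limma, with 3 and 4 at an unadjusted p under 0.05. Scarb1 did pass there when the code suffix was blocked on (adjusted p = 0.0334).

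Clathrin-coated pits are the main other entry route. All 18 measured genes of that coat passed the filter. At 12 h against undifferentiated cells 0 rose and 1 fell, beside 3.3% and 4.56% over all genes. The count at 12 h was 2 higher and 3 lower without 12 h replicates 3 and 4 (9.51% and 14.8% over all genes). Blocking on the code suffix gave 1 higher (Amph) and 3 lower (Epn2, Hip1 and Snx9), beside 7.99% and 10.7% over all genes. Hip1, an adaptor between clathrin and actin, fell by 1.47 ± 0.27 at 12 h (adjusted p = 0.00725) and by 2.14 ± 0.27 at 24 h (adjusted p = 0.000142). At 24 h 3 of 18 genes rose and 3 fell, a share near the 32.1% of all tested genes called in this comparison. Those that fell included Epn2 (-1.31 ± 0.26, adjusted p = 0.0021) and Snx9 (-0.65 ± 0.17, adjusted p = 0.0079), both proteins of membrane bending. Eps15, a scaffold of the early pit, rose by 1.14 ± 0.29 (adjusted p = 0.0074). The clathrin chains Clta, Cltb and Cltc themselves differed by at most 0.44 in any comparison, and 0 of 18 genes passed in limma between 24 h and 12 h, with 1 at an unadjusted p under 0.05.

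Targets of SRF and YAP, factors that respond to actin and to adhesion, were listed because both are known to respond to spreading on a stiff substrate. Of 16 tested genes 5 rose and 0 fell at 12 h against undifferentiated cells, where 3.3% of all tested genes were called higher and 4.56% lower. At 24 h 5 rose and 2 fell, where 12.7% were called higher and 19.4% lower. The count at 12 h became 3 higher (Acta2, Amotl2 and Myl9) and 2 lower (Tagln2 and Tpm4) without 12 h replicates 3 and 4, and 9 higher and 0 lower without replicate 1. With the code suffix as a block it was 9 higher and 0 lower, and with the runs of codes 8 higher and 0 lower. The calls over all tested genes moved with these settings too. They were 9.51% higher and 14.8% lower without replicates 3 and 4, and 3.03% and 2.81% without replicate 1. With the suffix block they were 7.99% and 10.7%, and with the runs 6.04% and 8.74%. Acta2, smooth muscle actin, was 2.41, 6.82, 7.12, 7.07 and 6.21 in 12 h replicates 1 to 5, against 2.19 to 3.26 in undifferentiated cells, and rose by 3.22 ± 0.72 (adjusted p = 0.0165). Without replicates 3 and 4 its difference was 2.44, and without replicate 1 it was 4.10. Myl9, a myosin light chain, rose by 2.34 ± 0.41 (adjusted p = 0.0057), the YAP target Amotl2 by 0.93 ± 0.23 (adjusted p = 0.0236) and Vcl, vinculin of focal adhesions, by 0.71 ± 0.19 (adjusted p = 0.0346). The fifth gene called was Tagln, which encodes transgelin, at 0.80, 4.02, 6.45, 6.46 and 3.92 in 12 h replicates 1 to 5, against 0.63 to 2.20 in undifferentiated cells. Tagln rose by 3.07 ± 0.90 (adjusted p = 0.0461) and lost its call in 19 of 30 alternative settings, and Vcl in 14 of 30. As with the caveolins, 12 h replicate 1 was low for Acta2. At 24 h Acta2 was 4.28 to 6.94, above every undifferentiated array, and its difference from 12 h was -0.19 ± 0.72 (adjusted p = 0.933). Its difference from undifferentiated cells was 3.03 ± 0.72 (adjusted p = 0.00518). Amotl2 rose by 1.54 ± 0.23 at 24 h (adjusted p = 0.000314) and Myl9 by 1.77 ± 0.41 (adjusted p = 0.00488). Tagln2, transgelin-2, fell by 2.34 ± 0.44 at 24 h (adjusted p = 0.0013). Between 24 h and 12 h 0 of 16 genes passed in limma, with 4 at an unadjusted p under 0.05. With the actin ratio as a covariate, 0 genes of this list and of the raft, partner and clathrin lists were called in any comparison.

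The genes with the array profile most like each member were ranked by Pearson's r over the 15 arrays, as a description that shares the same groups and arrays. For Cav1 these were Gss (glutathione synthetase, r = 0.952), Cnn2 (the actin-binding calponin 2, 0.943), Slc2a3 (the glucose transporter GLUT3, 0.931), Tgfb1i1 (the focal adhesion protein Hic-5, 0.927) and Pdlim7 (a PDZ and LIM protein of actin fibres, 0.915). Without 12 h replicates 3 and 4 their r was 0.762 to 0.873. Most opposed to Cav1 were Pstpip2 (-0.82), the linker histone gene H1f2 (-0.80) and the ryanodine receptor gene Ryr3 (-0.80). Without those 2 arrays r was -0.28 for H1f2, against -0.85 for Pstpip2.

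Cav2 was most like Mid2 (r = 0.925), the transporter gene Abcg2 (0.924), Acot9 (0.923), Srxn1 (sulfiredoxin, 0.918) and Msn (0.914), which encodes moesin, a linker of membrane and actin. These shared with Cav2 the low 24 h level: Msn had group means of 5.96, 6.13 and 4.94 in undifferentiated cells, at 12 h and at 24 h, and Abcg2 3.50, 3.52 and 2.45. Cavin1 was most like Clcf1 (a cytokine of the IL-6 family, r = 0.966), Glipr2 (0.951), Anxa2 (the membrane-binding annexin A2, 0.948), Prokr1 (a prokineticin receptor, 0.945) and Timp1 (a metalloproteinase inhibitor, 0.945). Anxa2 had means of 3.02, 4.22 and 2.67 in undifferentiated cells, at 12 h and at 24 h. Without 12 h replicates 3 and 4, r with Cavin1 was 0.722 to 0.829 for these 5 genes. An r above 0.9 was found for 10 of 7906 other genes with Cav1, 11 with Cav2 and 17 with Cavin1.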

How the data were processed

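Biotin-labelled cRNA from the total RNA of 15 samples was read on Affymetrix mouse arrays, a single array for each sample, with 22690 probe sets, per the labels. The submitters' processing notes name MAS5. Neither its version nor any scaling is named in the sources used here. Deposited values are on a log10 scale, since the hybridisation spike-ins gained 0.989 ± 0.050 (SD, 15 arrays) for each log10 step in concentration. They were multiplied by 3.32 to log2 with no further normalisation, and the design, written for linear or log2 values, was otherwise kept. Precision is limited by the number of arrays.

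The platform annotation gives 1 gene symbol for 20380 of the 22626 non-control probe sets, and these were used (691 had several symbols, 1555 none here). A gene's value is that of its probe set with the highest mean, and genes above the 40th percentile of means (log2 0.512) were tested. All groups were fitted together in limma 3.58.1 (R 4.3.3) as group means, with a variance trend and Benjamini-Hochberg adjustment, and an adjusted p under 0.05 was called. Errors after a difference are its standard errors. The fit was tested on simulated data. Members and lists were chosen with earlier results of these data known, so their counts are descriptions. The genes named are all of the caveola list, the called genes of each other list with the smallest p (at most 4 per comparison), and the 5 genes most alike each member, with 3 opposed to Cav1. Further genes of the lists that are named, such as Tagln, Prom1, Lgals3, the clathrin chains and genes called in an alternative setting alone, were chosen after their values were seen. Upstream windows are RefSeq sequences matched by symbol for all 3 members. The title code gives each array's suffix and run, and arrays of a run correlated by 0.291 in their deviations, so values within runs and suffixes are given. Alternatives changed the normalisation, filter, pseudocount, probe set rule, variance model, blocks, grouping and arrays. Leaving out 12 h replicates 3 and 4, leaving out all 12 h arrays (and then 2 more) from the correlations, the repeats of peak ranks and list counts without single 12 h arrays and the sum with smooth muscle genes were chosen after seeing the data. The planned test of correlations over all 15 arrays is not used, because the 12 h arrays also chose the genes.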

Additional observations from a re-analysis of the deposited data

Results flagged for a closer look

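Among 54 sets of 5 arrays (the 6 probe sets of the members and the other caveola genes, in each group) 4 held an array whose gap to its nearest neighbour was large against the range of its group, and chance flags about 1 set in 20. At 24 h, replicate 3 had 2.74 (log2) for Cavin1, and the remaining 24 h values ran from 1.88 to 2.12. The weak Cavin1 probe set 1453891_at had -0.341 in 12 h replicate 4, with the other 12 h arrays at -0.535 to -0.485. Ehd1 was 3.71 in undifferentiated replicate 2, against 3.85 to 3.88. Flna was 2.98 in 24 h replicate 5, against 3.89 to 4.24.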

How the results depend on the processing

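The labels carry no replicate numbers, and a paired analysis took the runs of consecutive title codes as the block, a tie by code alone. Of 622 genes called at 12 h against undifferentiated cells, quantile normalisation gave 934, a fit of the 2 groups alone 404, the suffix block 1476, the run block 1169, runs as a random block 1458, 12 h replicates 3 and 4 left out 1920, no suffix C arrays 70 and the actin ratio as a covariate 59. Between 24 h and 12 h 33 genes were called, and median centring gave 17, the mean of probe sets 18, the 2 groups alone 2, the suffix block 202, the run block 2, the random block 235, no suffix C arrays 52, and the actin covariate and 12 h replicates 3 and 4 averaged or left out 1 each. At 24 h against undifferentiated cells 2536 were called, 1128 without suffix C and 13 with the actin covariate, and 1003 higher against 1533 lower became 1582 against 1316 by quantile normalisation and 1419 against 1112 by median centring. Groups by file codes gave 0 genes in each comparison (81, 21 and 118 at an unadjusted p under 0.05, for 12 h and 24 h against the group before and 24 h against undifferentiated cells). By file codes Cav1 differed by 0.0645 at 12 h and 0.0448 between 24 h and 12 h, Cav2 by 0.00382, -0.182 and, at 24 h against undifferentiated cells, -0.179, and Cavin1 by -0.210 at 12 h and 0.179 between 24 h and 12 h. They also turned Stom (-0.227), Pag1 (-0.0631), Tgfbr2 (0.00156), Tpm4 (0.00753) and Prom1 (-0.256) at 24 h, and Scarb1 (0.0536), Amotl2 (-0.0999) and Tagln (-0.645) at 12 h. Within suffix B the 12 h differences were 3.53 for Cav1, 1.18 for Cav2 and 1.99 for Cavin1, and those between 24 h and 12 h -2.20 for Cav2 and -2.43 for Cavin1; within suffix C Cav2 gave -0.464 and Cavin1 -0.565 at 12 h, and within suffix A Cavin1 gave -0.396 between 24 h and 12 h. With 12 h replicates 3 and 4 left out Cavin1 gave -0.227 at 12 h and -0.372 between 24 h and 12 h, and the mean of probe sets gave -0.858 for Cav2 there. Of the caveola list, the run block and 12 h replicates 3 and 4 left out called 1 gene at 12 h; at 24 h against undifferentiated cells the suffix block called 4, and the mean of probe sets, file codes and actin covariate 0. Without the 12 h arrays r of Cav1 and Cav2 was 0.504, and without 2 more arrays r was 0.223 for Cav1 and Cav2, 0.465 for Cav1 and Cavin1 and 0.802 for Cav2 and Cavin1. The causes were not tested.

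Leaving out 1 array at a time gave 174 (without 12 h replicate 2) to 1005 (without 12 h replicate 3), 1 (without 12 h replicate 3 or 4, or 24 h replicate 1, 4 or 5) to 362 (without 12 h replicate 5) and 2012 to 2804 calls at 12 h, between 24 h and 12 h, and at 24 h. The 12 h differences, lowest without 12 h replicate 3 and highest without 12 h replicate 1, ran from 2.02 to 3.08 for Cav1, 0.35 to 0.81 for Cav2 and 0.33 to 1.09 for Cavin1, those between 24 h and 12 h from -2.40 to -1.35, -1.80 to -1.34 and -1.69 to -0.93, and those at 24 h from 0.49 to 0.83, -1.11 to -0.88 and -0.74 to -0.48. r ran from 0.816 to 0.922 (Cav1 and Cav2), 0.859 to 0.941 (Cav1 and Cavin1) and 0.917 to 0.976, and the caveola list had 1 (without undifferentiated or 24 h replicate 4) to 3 genes called at 24 h against undifferentiated cells. For the called genes of all lists, 975 alternative values kept direction and call, 183 kept the direction only and 8 reversed. Signal near the floor of the array limits the 3 weak probe sets.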
